A study of Mus musculus with 12 samples.

Results

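MHC class II and costimulation genes were followed in bone marrow-derived macrophages (BMDMs) treated with fenoterol, an agonist specific for the β2-adrenergic receptor (B2AR). The set held 10 genes taken by symbol from the raw count table: the class II transactivator gene *Ciita*, the invariant chain gene *Cd74*, the chain genes *H2-Aa*, *H2-Ab1* and *H2-Eb1*, the peptide loading genes *H2-DMa* and *H2-DMb1*, and the costimulation genes *Cd40*, *Cd80* and *Cd86*. They were 10 of the 53379 genes listed, and all 10 were among the 12386 genes that passed a filter on low counts and were tested. Marrow of 4 C57BL/6J mice, given in the methods as males of 8 to 20 weeks, was cultured for 1 week with medium conditioned by L929 cells. BMDMs of each mouse were left untreated or given 1 μM fenoterol for 1 h or 4 h in the same medium, which made 3 groups of 4 libraries, with no vehicle or time control named for the untreated cells. Libraries of the same number came from the same mouse. Total counts ran from 14580533 to 24153284 per library.

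MHC class II molecules display peptides from the endosomes of an antigen-presenting cell to CD4+ T cells. CIITA is the master regulator of their genes and of *Cd74*, and binds no DNA itself but is recruited by an assembly of RFX, CREB and NF-Y factors on the X and Y boxes of class II promoters. CD80 and CD86 are ligands of CD28 and CTLA-4 on T cells, and CD40 is the receptor through which T cells that carry CD40 ligand signal back. Macrophages carry little class II at rest and gain it when interferon gamma induces *Ciita*.

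Compared per length, as counts over exon length and library size (RPKM), the untreated levels covered a wide range. *Cd74* stood highest with a mean of 289 RPKM ± 173 (SD, n = 4). *H2-Eb1* had 40.9 RPKM ± 30.2, *H2-Ab1* 33 RPKM ± 21.5 and *H2-Aa* 29.8 RPKM ± 18.4 and these 3 means lay within each other's spread. *H2-DMb1* had 18.3 RPKM ± 2.11, *Cd86* 9.14 RPKM ± 1.52 and *H2-DMa* 9.09 RPKM ± 2.61. The lowest levels were those of *Cd80*, *Cd40* and *Ciita*, with 2.84 RPKM ± 0.339, 2.63 RPKM ± 0.268 and 1.12 RPKM ± 0.654. After 4 h of fenoterol *Cd86* reached 33.4 RPKM ± 7.1, while *Cd40* stood at 0.43 RPKM ± 0.077 and *Ciita* at 0.233 RPKM ± 0.174.

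The 10 genes did not move together. Transcripts of the B7 ligands *Cd80* and *Cd86* rose within 1 h, and *Ciita* and *Cd40* transcripts were lower at 4 h. When each mouse was compared with itself, *Ciita* was lower at 1 h too, and the class II chain transcripts, which otherwise did not pass, were lower at 4 h. At 1 h, 2 of the 10 genes passed an adjusted p under 0.05 (edgeR's quasi-likelihood test with Benjamini-Hochberg adjustment over all genes tested), both higher (0 of the 10 were lower, also at an unadjusted p under 0.05 and by DESeq2 or limma, and 1, *Ciita*, with the mouse as a block). Of all genes tested, 20.1% passed at 1 h, 10% higher and 10.1% lower. At 4 h, 4 of the 10 passed, 2 higher and 2 lower, beside 40% of all genes, 19.7% higher and 20.4% lower. Between 4 h and 1 h, 2 of the 10 differed, *Cd86* higher and *Cd40* lower at 4 h, beside 38.5% of all genes, 18.7% higher and 19.8% lower. The median log2 fold change of the 10 genes was 0.06 at 1 h and -0.32 at 4 h, where that of all genes was -0.00 and 0.00. Both times were compared with the same untreated libraries.

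When the fit took each mouse as its own block, so that each library was compared with those of its own animal, 3 of the 10 passed at 1 h, beside 27% of all genes. At 4 h 8 of the 10 passed, beside 47.4% of all genes, and between 4 h and 1 h 9 of the 10, beside 46.6%. The 4 genes gained at 4 h were *Cd74*, *H2-Aa*, *H2-Ab1* and *H2-Eb1*, all lower. The 2 groups of 4 libraries did not overlap for 2 of the 10 genes at 1 h (23% of all genes tested), 3 of the 10 at 4 h (37.6%), and 2 of the 10 between 4 h and 1 h (35.9%). The shares of the 10 genes at 1 h and, without the block, at 4 h were close to those of all genes.

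**Figure D1:**
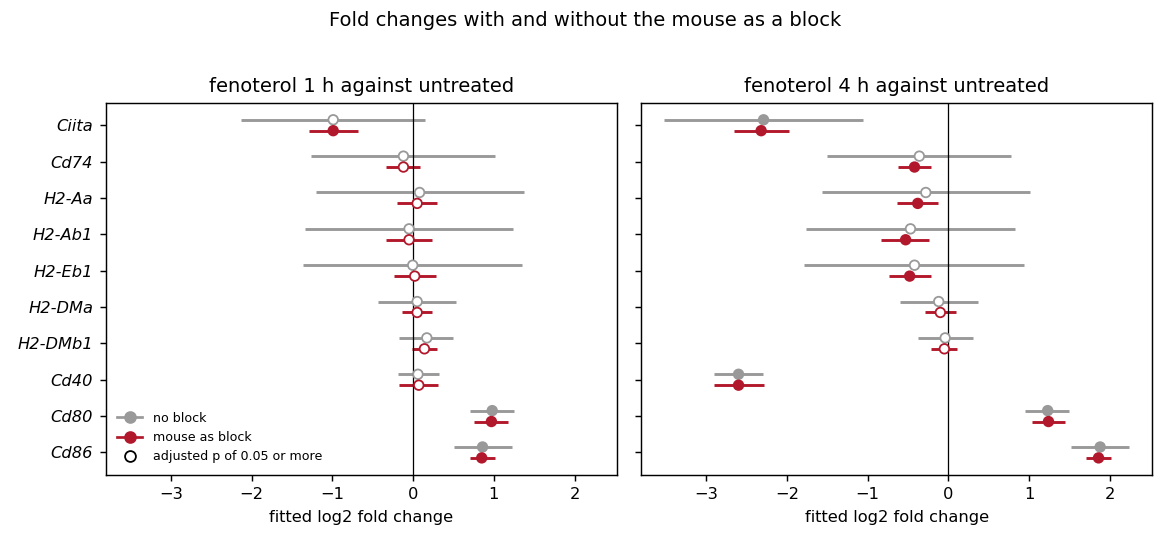
Fitted log2 fold change (x axis) of each of the 10 genes (y axis) at 1 h and 4 h of fenoterol against untreated BMDMs, with 95% intervals, in the fit without (grey) and with (red) the mouse as a block, with filled points for an adjusted p under 0.05. The intervals of *Ciita*, *Cd74* and the 3 chain genes narrow with the block, while those of *Cd40*, *Cd80* and *Cd86* lie far from 0 in both fits at 4 h.

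*Ciita* (ENSMUSG00000022504, GRCm38 chromosome 16, 10480059 to 10528418, plus strand) encodes the transactivator on which class II transcription depends. Normalized counts in untreated BMDMs of mice 1 to 4 were 249, 353, 63.6 and 174. After 1 h they were 89.3, 195, 43.1 and 95.3, and after 4 h 42.7, 88.6, 12.9 and 29.6. Every mouse stepped down at both times, yet the groups overlapped, since untreated cells of mouse 3 held fewer transcripts than 4 h cells of mouse 2. The log2 fold change within a mouse lay between -1.48 and -0.56 at 1 h and between -2.56 and -2 at 4 h. The fitted value at 4 h was -2.29 (SE 0.57, adjusted p = 0.00519), and that at 1 h was -0.99 (SE 0.53, adjusted p = 0.232). With the mouse as a block, the fall at 1 h was -0.99 on the log2 scale (SE 0.14, adjusted p = 5.21e-05) and that at 4 h was -2.32 (SE 0.16, adjusted p = 2.18e-09). The further fall from 1 h to 4 h was -1.33 with the block (SE 0.17, adjusted p = 6.87e-06) and -1.30 without it (SE 0.59, adjusted p = 0.0969). Of its exon bases, 3.45% lie opposite the gene *Dexi*, which held 2358 counts over all libraries. In these bulk libraries, fewer cells that carry a transcript and less transcript per cell cannot be told apart. Of the B cell markers tested, *Ighm* had -0.62 at 1 h with the block and -2.77 at 4 h, while *Cd79b* passed at neither time. The part of B cells and dendritic cells in the values of *Ciita* was not tested.

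*Cd74* (ENSMUSG00000024610, GRCm38 chromosome 18, 60803848 to 60812652, plus strand) encodes the invariant chain, which fills the class II groove until peptide is loaded. Untreated BMDMs of mice 1 to 4 held 9225, 17235, 3599 and 8031 normalized counts. At 1 h the values were 8862, 15911, 3533 and 6663, and at 4 h they were 7022, 15253, 3258 and 4039. All 4 mice were lower at 4 h, by -0.39, -0.18, -0.14 and -0.99 on the log2 scale, while untreated cells of the 4 mice differed by up to 4.79-fold. Without the block the log2 fold change at 4 h was -0.36 (SE 0.53, adjusted p = 0.634), with the block -0.42 (SE 0.10, adjusted p = 0.0017). Without mouse 4 the blocked value was -0.24 (adjusted p = 0.0034). At 1 h neither fit passed, with -0.12 (SE 0.10, adjusted p = 0.389) in the blocked fit.

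The 3 chain genes lie together on chromosome 17 of GRCm38: *H2-Ab1* (ENSMUSG00000073421, 34257689 to 34269419, plus strand), *H2-Aa* (ENSMUSG00000036594, 34282744 to 34287823, minus strand) and *H2-Eb1* (ENSMUSG00000060586, 34305867 to 34316674, plus strand). *H2-Aa* and *H2-Ab1* encode the α and β chains of I-A, the class II molecule of this strain. *H2-Eb1* encodes the β chain of I-E, whose α chain gene is defective in C57BL/6 mice, and that gene, listed as *H2-Ea-ps*, had 0 counts in all 12 libraries, which allows up to 3 counts in each.

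*H2-Aa* had 2212, 4032, 712 and 1921 normalized counts in untreated BMDMs of mice 1 to 4, then 2474, 4471, 779 and 1654 at 1 h and 1525, 4117, 692 and 955 at 4 h. *H2-Ab1* had 1547, 3105, 484 and 1508 untreated, then 1484, 3059, 536 and 1301 at 1 h and 1126, 2635, 467 and 572 at 4 h. *H2-Eb1* had 1335, 3173, 442 and 1289 untreated, then 1501, 3020, 495 and 1172 at 1 h and 1010, 2645, 429 and 556 at 4 h. The groups overlapped for all 3 genes at both times, and in each group the mice kept the order 2, 1, 4, 3 from high to low. At 1 h the blocked log2 fold changes were 0.05 (95% interval -0.20 to 0.30) for *H2-Aa*, -0.05 (-0.34 to 0.24) for *H2-Ab1* and 0.02 (-0.24 to 0.28) for *H2-Eb1*, and none passed in either fit.

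At 4 h the 3 chain genes were lower with the mouse as a block. *H2-Ab1* fell by 0.53 on the log2 scale (SE 0.14, adjusted p = 0.0047), *H2-Eb1* by 0.48 (SE 0.12, adjusted p = 0.00436) and *H2-Aa* by 0.38 (SE 0.12, adjusted p = 0.0133). Without the block these values were -0.47, -0.42 and -0.28, with adjusted p of 0.584, 0.643 and 0.754. Mouse 4 moved most: over *Cd74* and the 3 chain genes its median log2 change was -1.11, where that of mouse 1 was -0.43, that of mouse 2 -0.21 and that of mouse 3 -0.04. Without mouse 4 the blocked values were -0.26 for *H2-Ab1* (adjusted p = 0.00513), -0.25 for *H2-Eb1* (adjusted p = 0.0134) and -0.18 for *H2-Aa* (adjusted p = 0.131). The call for *H2-Aa* was also lost without mouse 1, with -0.33 (adjusted p = 0.0692). Within mouse 2 *H2-Aa* had a log2 change of 0.03. Summed dendritic cell and B cell markers were also lower at 4 h (18.5 to 33.4 against 33.7 to 68.9, and 682 to 1512 against 4534 to 7757), and their part in these values was not tested.

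Between 1 h and 4 h the blocked log2 fold changes were -0.30 for *Cd74* (SE 0.10, adjusted p = 0.0185), -0.43 for *H2-Aa* (SE 0.12, adjusted p = 0.00639), -0.48 for *H2-Ab1* (SE 0.14, adjusted p = 0.00993) and -0.50 for *H2-Eb1* (SE 0.12, adjusted p = 0.00348), and each of these genes was lower at 4 h in all 4 mice. Without mouse 4 the values were -0.17, -0.33, -0.27 and -0.33, and all 4 still passed. Without mouse 1 *Cd74* and *H2-Aa* no longer passed, with adjusted p of 0.0719 and 0.0636. Without the block none passed, with adjusted p from 0.635 to 0.762. In the blocked fit *Ciita* was lower at 1 h, when the intervals of the chain genes included 0, and the chain genes were lower at 4 h by less than *Ciita*. The difference between *Ciita* and the chain genes in size or timing was not tested.

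**Figure D2:**
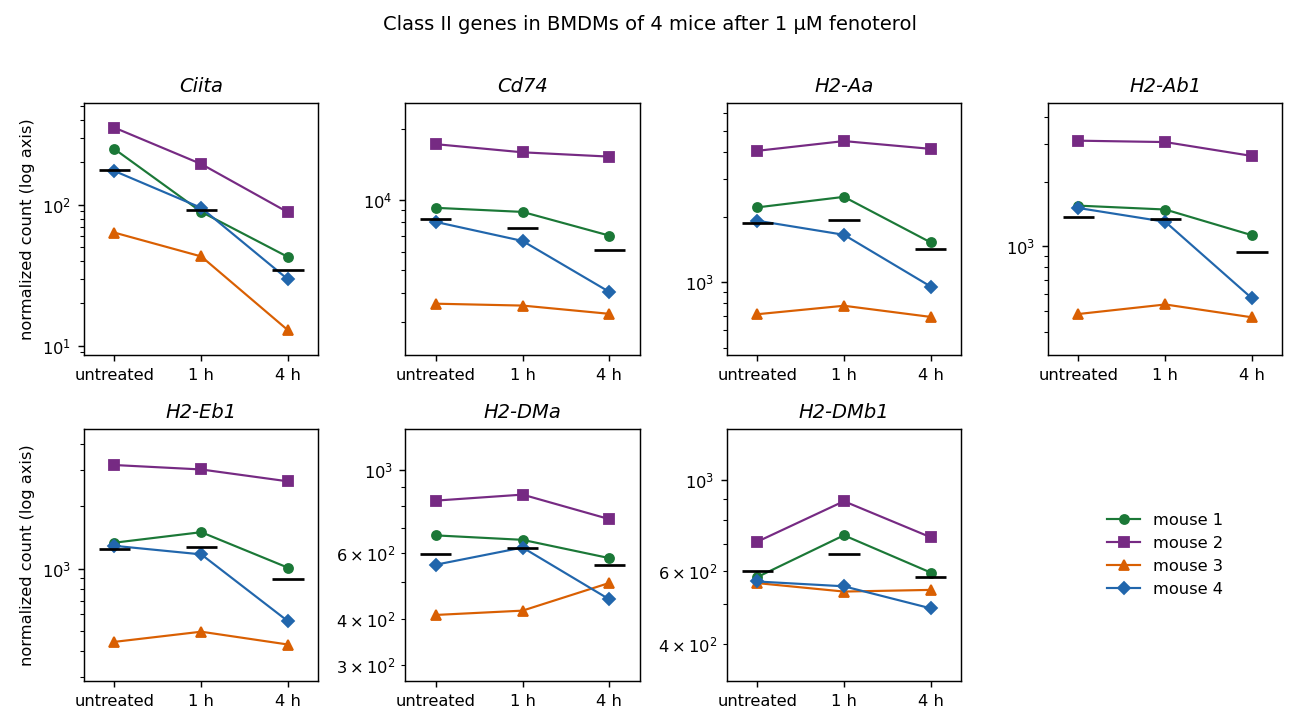
Normalized counts (y axis, log scale) of *Ciita*, *Cd74*, the 3 chain genes and the 2 H2-DM genes in untreated BMDMs and after 1 h and 4 h of fenoterol (x axis), with 1 line per mouse and a black bar at the geometric mean of each group. *Ciita* is lower at each step in all 4 mice, with mouse 4 above mouse 1 at 1 h only. *Cd74* and the chain genes keep the order of the mice at every time and drop most in mouse 4 at 4 h. Mice 1 and 4 nearly meet for *H2-Ab1* and *H2-Eb1* in untreated cells.

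The promoters of class II genes share a short upstream module, shown here because its X2 element resembles the cAMP response element on which CREB binds. RefSeq promoter windows on GRCm38.p6, 250 bases before to 50 bases after the start, were searched on both strands. Of the 10 genes, 5 matched: *H2-Aa*, *H2-Eb1*, *H2-DMa* (2 windows), *H2-DMb1* and *Cd80*. *Ciita*, *Cd74*, *H2-Ab1*, *Cd40* and *Cd86* were not analysed here. In the stretches below, written 5′ to 3′ on the gene's strand, capitals mark 1 copy each of GCAAC (letters of the X1 box), TGACG or TGATG (letters like the start of a cAMP response element, extended to TGACGTCA where present) and ATTGG (the reverse complement of CCAAT, the Y box letters that NF-Y reads). The spacing and the letters were chosen after these windows had been read. The stretches are chr17:34287857-34287917 on the minus strand for *H2-Aa*, chr17:34305764-34305822 on the plus strand for *H2-Eb1* and chr17:34153085-34153144 on the plus strand for *H2-DMb1*.
H2-Aa: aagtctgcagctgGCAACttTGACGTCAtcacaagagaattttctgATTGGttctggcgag
H2-Eb1: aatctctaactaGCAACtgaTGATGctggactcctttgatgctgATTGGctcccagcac
H2-DMb1: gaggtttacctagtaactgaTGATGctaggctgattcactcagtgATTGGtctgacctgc

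*H2-Aa* held the whole palindrome TGACGTCA 74 bases before the start and ATTGG 26 bases after its first letter. *H2-Eb1* and *H2-DMb1* held TGATG, the later of 2 overlapping copies, 83 and 86 bases before the start, with ATTGG 24 and 25 bases after its first letter. For *H2-DMb1* the RefSeq start used here lies downstream of the GENCODE start of the gene given below, so its stretch is inside the GENCODE gene. *H2-Eb1* held 3 copies of TGATG in all, of which the last, left in lower case, starts nearer to ATTGG than 20 bases. TGACGTCA, which contains TGACG on both strands, was present in 1.79% of the 32851 promoter windows of the table, TGACG in 20.8%, TGATG in 39.3%, GCAAC in 35.2% and CCAAT in 37.4%. A TGACG or TGATG with ATTGG 20 to 30 bases after its first letter, in either orientation, was present in 1.08%. *H2-DMb1* held no GCAAC. The windows of *H2-DMa* and *Cd80* held no TGACG on either strand and, on the gene's strand, no such pair. Pairs in the other orientation were counted for all windows together and were not looked up for these genes. These matches describe letters in a window, and binding was not measured.

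*H2-DMa* (ENSMUSG00000037649, chromosome 17, 34119541 to 34139101, plus strand) and *H2-DMb1* (ENSMUSG00000079547, chromosome 17, 34153072 to 34160230, plus strand) encode chains of H2-M, which exchanges the invariant chain remnant for peptide. *H2-DMa* had 667, 826, 409 and 557 normalized counts in untreated BMDMs of mice 1 to 4, 649, 857, 420 and 619 at 1 h and 580, 737, 498 and 450 at 4 h. *H2-DMb1* had 581, 708, 562 and 567 untreated, 734, 888, 536 and 552 at 1 h and 596, 726, 541 and 488 at 4 h. The groups overlapped, and neither gene passed at 1 h or 4 h in either fit. The blocked log2 fold change at 4 h was -0.10 for *H2-DMa* (95% interval -0.29 to 0.09) and -0.05 for *H2-DMb1* (-0.21 to 0.11). Without mouse 3, the only mouse in which it was higher at 4 h, *H2-DMa* passed with -0.22 (adjusted p = 0.031). Between 1 h and 4 h *H2-DMb1* passed in the blocked fit with -0.20 (SE 0.08, adjusted p = 0.0428), but not without mouse 1, 2 or 4. Of the 50-base stretches of *H2-DMb1*, 22.7% are shared with *H2-DMb2*, and 10.4% of the exon bases of *H2-DMa* lie opposite *Brd2*, which held 79305 counts over all libraries, so that both counts are uncertain.

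The class II genes differed widely between the 4 mice. In untreated BMDMs the highest mouse exceeded the lowest 7.17-fold for *H2-Eb1*, 6.42-fold for *H2-Ab1*, 5.66-fold for *H2-Aa*, 5.56-fold for *Ciita* and 4.79-fold for *Cd74*. The median of the 10289 genes with a mean of at least 50 normalized counts was 1.19-fold, and only 0.243% to 0.447% of those genes had a ratio as large as these 5. The ratio was 2.02-fold for *H2-DMa*, 1.51-fold for *Cd86* and 1.24-fold to 1.26-fold for *H2-DMb1*, *Cd80* and *Cd40*.

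In the blocked fit, 8 of the 10 genes differed between mice at an adjusted p under 0.05, beside 13.9% of all genes tested. Other lists also lay above that share. Of the macrophage markers 5 of 8 differed (62.5%), of class I presentation 9 of 15 (60%) and of endosomal processing 6 of 10 (60%). Of the genes around *Ciita* 4 of 18 did (22.2%), and of other T cell ligands and CD40 adaptors 4 of 13 (30.8%). Adjusted p was 5.21e-09 for *Cd74*, 1.05e-08 for *H2-Eb1*, 1.25e-08 for *H2-Aa*, 1.01e-07 for *H2-Ab1*, 1.43e-06 for *Ciita*, 0.000124 for *H2-DMa*, 0.00103 for *H2-DMb1* and 0.000295 for *Cd86*. *Cd40* (adjusted p = 0.801) and *Cd80* (adjusted p = 0.141) did not pass. Mouse 2 was highest and mouse 3 lowest for *Cd74* and the 3 chain genes in all 3 groups, with mouse 2 above the mean by 1.15 to 1.39 and mouse 3 below it by -1.07 to -1.31 on the log2 scale. *Ciita* followed with 1.14 and -1.33, and at 1 h its mouse 4 lay just above mouse 1. *Cd86* took another order, with mouse 2 at 0.32 and mouse 1 lowest at -0.29. The 8 genes still differed when mouse 1, 3 or 4 was left out, and without mouse 2 all but *H2-DMb1* (adjusted p = 0.168) did, beside 9.07%, 8.65%, 10.8% and 11.9% of all genes without mouse 1, 2, 3 and 4. As each animal gave 1 culture, differences between animals and between their marrow cultures cannot be told apart.

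Genes of MHC class I presentation, 15 in the list and all tested, did not share this order. Of them, 9 differed between mice, with ranges of 0.22 to 0.50 on the log2 scale beside 2.22 to 2.69 for *Ciita*, *Cd74* and the chain genes, and 0 had the order 2, 1, 4, 3 in all 3 groups. *H2-K1*, a classical class I heavy chain, was highest in mouse 2 (0.19) and lowest in mouse 1 (-0.26), with mouse 3 at 0.13. *Nlrc5*, the class I counterpart of *Ciita*, was highest in mouse 3 at 0.22 (adjusted p = 0.00423), the mouse with the least class II. Of the genes around *Ciita* (below), 4 of 18 differed between mice, over ranges of 0.27 to 0.58. Of these, *Prdm1* had the order 2, 1, 4, 3 in its mean over the groups (range 0.44, adjusted p = 0.0374) and in 1 of the 3 groups, where *Ciita* had it in 2 and *Cd74* in all 3. The B cell marker *Ighm* also had it in 2 (range 0.85, adjusted p = 9.21e-05), and all 4 neutrophil and both fibroblast markers tested differed between mice, over ranges of 0.74 to 1.41, with that order in 0 of them in any group. Among genes of endosomal processing 6 of 10 differed, and *Ifi30*, which encodes the thiol reductase GILT, ran from 0.45 in mouse 4 to -0.45 in mouse 2 (adjusted p = 7.55e-09). At 4 h *Ifi30* passed with the block only (-0.24, adjusted p = 0.000175).

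**Figure D3:**
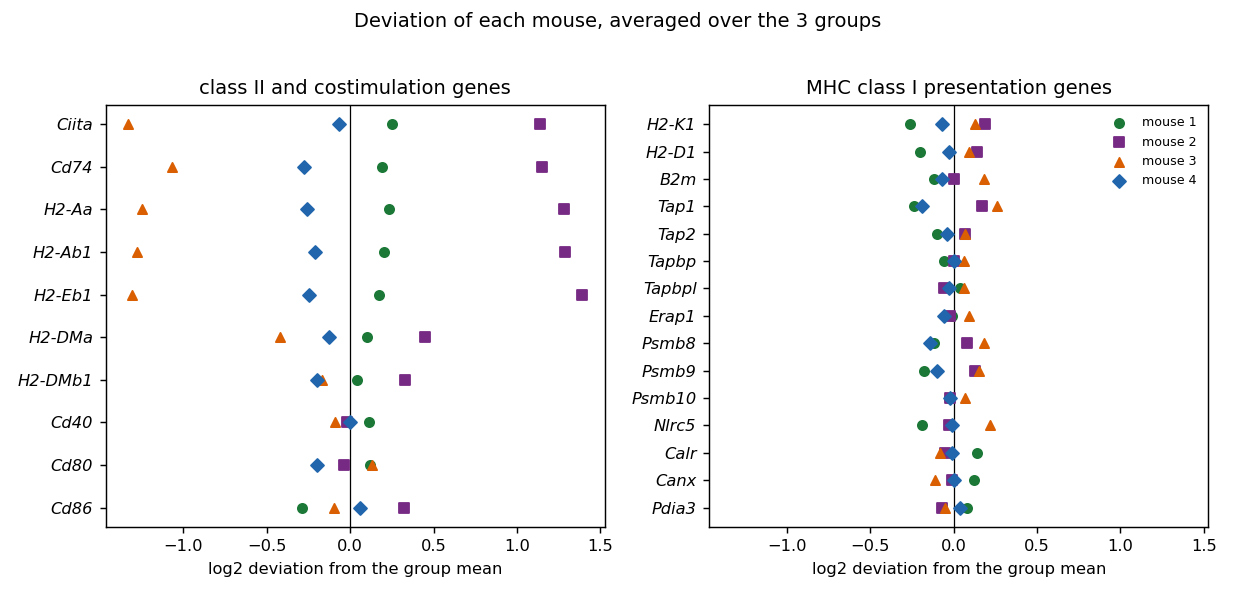
Log2 deviation of each mouse from the group mean, averaged over the 3 groups (x axis), for the 10 genes (left) and 15 genes of MHC class I presentation (right). Mouse 2 lies above 1 and mouse 3 below -1 for *Ciita*, *Cd74* and the 3 chain genes, while all class I genes lie between -0.26 and 0.26.

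*Cd40* (ENSMUSG00000017652, chromosome 2, 165055627 to 165072948, plus strand) had the largest fitted fall of the 10 genes at 4 h in both fits. With the block and without mouse 2, *Ciita* had the larger fall, with -2.49 beside -2.45 for *Cd40*. Normalized counts of *Cd40* in mice 1 to 4 were 167, 202, 163 and 171 in untreated BMDMs, 194, 189, 167 and 183 at 1 h and 35.4, 22.9, 27.7 and 28.8 at 4 h. The 4 h values lay below all others, and those at 1 h overlapped the untreated ones. The log2 fold change was 0.06 at 1 h (95% interval -0.19 to 0.32, adjusted p = 0.787) and -2.60 at 4 h (SE 0.14, adjusted p = 2.4e-09). The difference between 4 h and 1 h was -2.67 (SE 0.14, adjusted p = 3.13e-09). At 1 h 3 of the 4 mice were slightly higher, and at 4 h all 4 were lower, by -3.14 to -2.24 on the log2 scale.

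*Cd80* (ENSMUSG00000075122, chromosome 16, 38455561 to 38496335, plus strand) had 226, 182, 228 and 187 normalized counts in untreated BMDMs of mice 1 to 4, 479, 413, 434 and 300 at 1 h and 466, 486, 523 and 461 at 4 h. All treated values lay above all untreated ones. Its log2 fold change was 0.98 at 1 h (SE 0.13, adjusted p = 5.82e-05) and 1.23 at 4 h (SE 0.13, adjusted p = 2.51e-06). From 1 h to 4 h the groups overlapped, with 0.25 (SE 0.12, adjusted p = 0.128), and mouse 1 did not go up. The blocked fit gave 0.27 (SE 0.09, adjusted p = 0.0235), which did not pass without mouse 2, 3 or 4.

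*Cd86* (ENSMUSG00000022901, chromosome 16, 36603869 to 36666081, minus strand) had 509, 769, 690 and 656 normalized counts in untreated BMDMs of mice 1 to 4. These became 1015, 1530, 1041 and 1175 at 1 h and 1917, 2984, 2030 and 2660 at 4 h. The 3 groups followed each other without overlap. The log2 fold change was 0.86 at 1 h (SE 0.17, adjusted p = 0.00172) and 1.88 at 4 h (SE 0.17, adjusted p = 5e-07), with a further 1.01 from 1 h to 4 h (SE 0.16, adjusted p = 0.000189). Per length, *Cd86* and *H2-DMa* stood alike in untreated BMDMs, at 9.14 RPKM and 9.09 RPKM, and at 4 h the values were 33.4 RPKM and 8.38 RPKM. Like *Cd80*, it was higher in every mouse at both times.

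**Figure D4:**
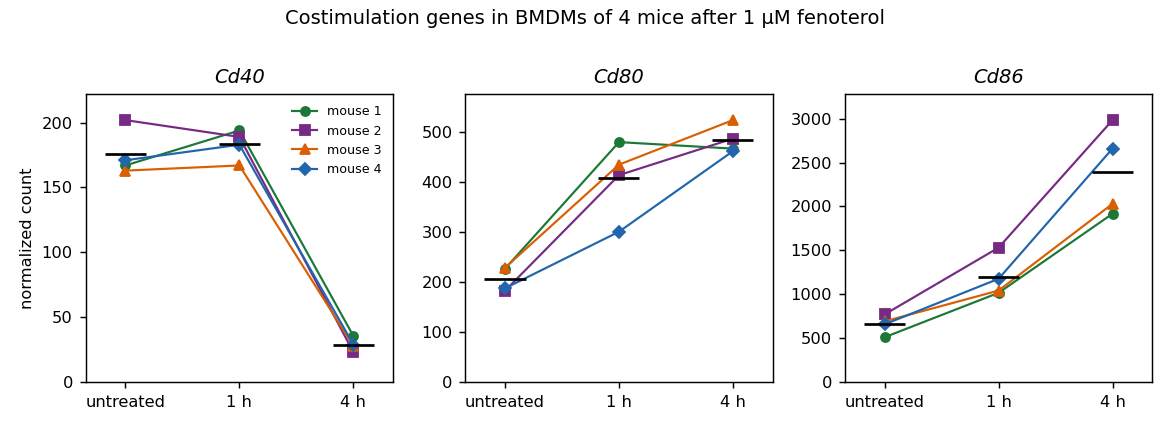
Normalized counts (y axis, from 0) of *Cd40*, *Cd80* and *Cd86* in untreated BMDMs and after 1 h and 4 h of fenoterol (x axis), with 1 line per mouse and a black bar at the group mean. *Cd40* lies between 22.9 and 35.4 at 4 h, *Cd80* is up at 1 h, and *Cd86* climbs at both steps.

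Of 18 tested genes that act on *Ciita* and the class II promoters, 3 rose and 5 fell at 1 h, and 7 rose and 5 fell at 4 h, with medians of -0.16 and 0.03 on the log2 scale. With the block 6 rose and 8 fell at 1 h. Of all genes, 20.1% passed at 1 h (27% with the block) and 40% at 4 h (47.4% with the block), about evenly in each direction without the block, and the counts of this list and of those that follow stand beside these shares. *Irf8*, a factor of myeloid lineage genes, fell by 0.74 at 1 h (SE 0.09, adjusted p = 1.61e-05) and by 1.13 at 4 h (SE 0.09, adjusted p = 1.05e-07). *Irf1*, which acts on the interferon-responsive *Ciita* promoter, fell by 0.73 (SE 0.07, adjusted p = 1.58e-06) and by 0.61 (SE 0.07, adjusted p = 4.33e-06). *Prdm1*, which encodes the *Ciita* repressor Blimp-1, fell by 1.18 at 1 h (SE 0.14, adjusted p = 1.74e-05) and by 0.53 at 4 h (SE 0.13, adjusted p = 0.00577). The members that rose include the interferon gamma receptor gene *Ifngr2* (0.74 at 1 h and 0.42 at 4 h) and its kinase gene *Jak2* (0.31 and 0.68).

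Of the factors on the class II promoter, *Rfx5* fell by 0.31 at 1 h (adjusted p = 0.0265) and by 0.42 at 4 h (adjusted p = 0.00199), whereas *Rfxap* rose by 0.45 (adjusted p = 0.00359) and 0.48 (adjusted p = 0.000994). *Nfya* and *Nfyb*, subunits of NF-Y, passed at 4 h with 0.34 and 0.43. At 1 h they passed with the block only and in opposite directions, *Nfya* with -0.17 (adjusted p = 0.00962) and *Nfyb* with 0.28 (adjusted p = 0.0441). *Creb1* passed at neither time (-0.15 and 0.04). The myeloid factor gene *Spi1* had -0.15 and -0.05, of which the first passed with the block only (adjusted p = 0.0464). Subunits of the same assembly, *Rfx5* and *Rfxap*, thus went in opposite directions at both times.

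Other class II chains were at low counts. Of the 6 listed, 5 were in the table and 2 were tested. *H2-DMb2* had a mean of 20.2 normalized counts untreated and 36 at 4 h (log2 fold change 0.84, SE 0.23, adjusted p = 0.00905), and reads it shares with *H2-DMb1* make it uncertain. *H2-Ob*, a chain of the H2-M inhibitor H2-O, had 23.3 and 14.2 (-0.71, adjusted p = 0.0921). In endosomal processing and class II turnover, 1 of 10 genes rose and 1 fell at 1 h, and 2 rose and 3 fell at 4 h (with the block, 3 and 5). *Ctsl*, a cathepsin gene, rose by 1.05 at 4 h (SE 0.07, adjusted p = 1.05e-08). *March1*, whose product ubiquitinates class II and CD86 for removal from the surface, fell by 0.72 at 1 h (SE 0.12, adjusted p = 0.00055) and by 1.01 at 4 h (SE 0.12, adjusted p = 1.07e-05). *March8* fell by 0.40 at 4 h (adjusted p = 9.9e-05), and *Lgmn*, an asparaginyl endopeptidase gene, by 0.29 (adjusted p = 0.000246).

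Of 18 other T cell ligands and CD40 adaptors listed, 13 were tested, of which 3 rose and 4 fell at 1 h, and 4 rose and 8 fell at 4 h (with the block, 4 and 5 at 1 h and 5 and 7 at 4 h), beside 20.1% and 40% of all genes (27% and 47.4% with the block). *Tnfsf14*, which encodes LIGHT, rose most, from a mean of 127 normalized counts to 694 at 1 h (log2 fold change 2.45, SE 0.12, adjusted p = 1.57e-09) and 561 at 4 h (2.14, SE 0.12, adjusted p = 4.97e-09). *Tnfsf9*, the gene of the 4-1BB ligand, rose by 0.95 and 0.75, with adjusted p of 0.000288 and 0.000969. *Cd274*, which encodes the inhibitory ligand PD-L1, rose by 0.72 at 1 h (adjusted p = 6.33e-05) and had 0.22 at 4 h (adjusted p = 0.0823, and 0.00454 with the block).

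Some adhesion and B7 family ligands fell, while *Cd80*, *Cd86* and, at 1 h, *Cd274* of the B7 family rose. *Cd48* fell by 1.72 at 4 h (SE 0.06, adjusted p = 7.04e-11), *Icam1* by 0.71 at 1 h and 0.81 at 4 h (SE 0.06 at both, adjusted p = 5.97e-07 and 7.24e-08), and *Icosl*, the ligand of ICOS, by 0.50 and 0.63 (adjusted p = 0.0063 and 0.000507). *Cd276* fell by 1.14 at 4 h from a mean of only 23.3 normalized counts (adjusted p = 0.00568). *Traf5*, an adaptor of CD40, fell by 0.53 at 1 h (adjusted p = 0.00163), and *Traf1* rose by 0.66 at 4 h (adjusted p = 0.000183) and passed at 1 h with the block only (0.29, adjusted p = 0.0273). *Vsir*, which encodes the B7 family protein VISTA, fell by 0.32 at 4 h (SE 0.08, adjusted p = 0.00596) and passed at 1 h with the block only (-0.21, adjusted p = 0.00303).

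In MHC class I presentation, 0 of 15 genes passed at 1 h without the block (0 in edgeR's quasi-likelihood test also at an unadjusted p under 0.05, 0 by DESeq2 and limma, and 1 with the block), and 2 rose and 4 fell at 4 h (with the block, 4 and 4), close to the 40% of all genes (47.4% with the block). *Calr* and *Pdia3*, genes of the peptide loading complex, rose by 0.33 (adjusted p = 0.00234) and 0.18 (adjusted p = 0.0395). *Nlrc5* fell by 0.39 (adjusted p = 0.0118) and *Tapbpl* by 0.37 (adjusted p = 0.00376). *H2-K1* had 0.13 at 1 h and 0.12 at 4 h, which passed with the block only (adjusted p = 0.0387 and 0.0227).

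**Figure D5:**
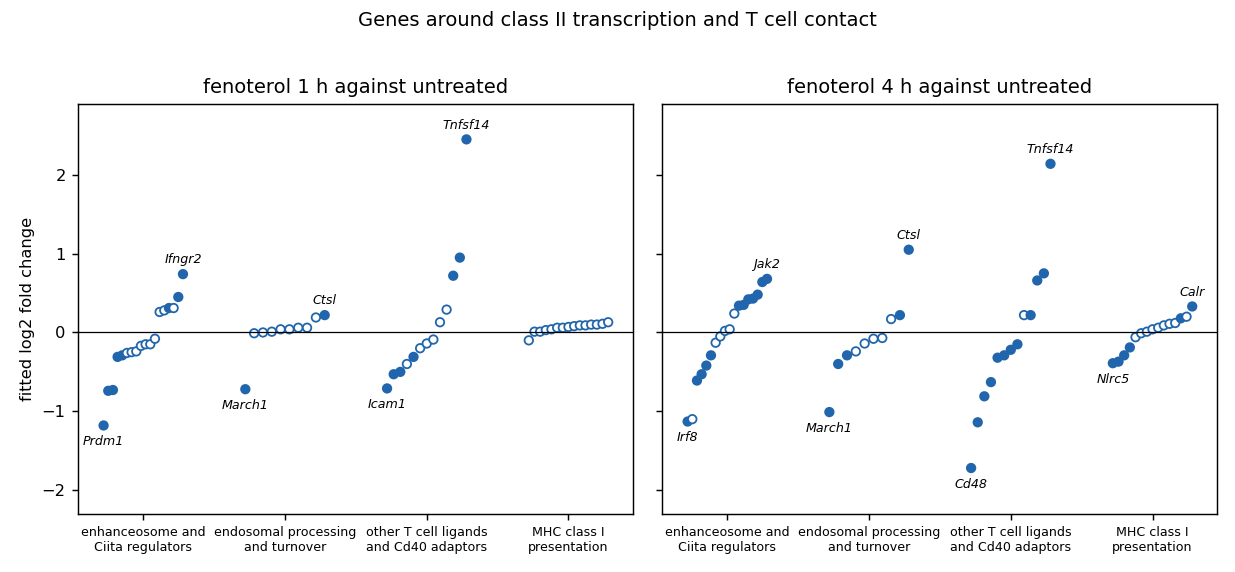
Fitted log2 fold change (y axis) at 1 h and 4 h of fenoterol of each tested gene in 4 lists (x axis), in order of size within a list, with filled points for an adjusted p under 0.05 and the genes at the ends named where they passed. Class I presentation genes lie within -0.39 and 0.33, while *Tnfsf14* lies at 2.45 and 2.14 and *Cd48* at -1.72 at 4 h.

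The label of the cells was checked against markers. The summed normalized counts of 8 macrophage markers were 630810 to 785709 in every library, and *Lyz2*, *Csf1r* and *Adgre1* were the largest of them. At 4 h 3 of the 8 were higher and 4 lower (with the block, 3 and 5), among them *Mertk*, an efferocytosis receptor gene, with -1.51 (adjusted p = 5.13e-11) and *Fcgr1*, an Fc receptor gene, with 0.72 (adjusted p = 0.00073). *Lyz2* passed at 4 h with the block only (-0.19, adjusted p = 0.00256). Class II is also carried by dendritic cells and B cells. The sum of 8 dendritic cell markers spanned 33.7 to 68.9 without fenoterol, 33.3 to 51.2 after 1 h and 18.5 to 33.4 after 4 h, and 4 of the 8 had at most 10 counts in every library. *Batf3* fell by 2.15 at 4 h (adjusted p = 0.00254) from a mean of 25.9. The sums of 6 B cell markers were 4534 to 7757, 2775 to 5278 and 682 to 1512, mostly from *Ighm*, with means of 5735, 3759 and 846. *Ighm* fell by 2.77 at 4 h (SE 0.26, adjusted p = 1.03e-06) and, with the block only, by 0.62 at 1 h (adjusted p = 5.71e-05). Of the other B cell markers, *Cd79b* had means of 150 to 183, and *Ms4a1*, *Cd79a* and *Pax5* were each at most 10 counts in every library. By mouse, the B cell sum averaged 3734, 4849, 2730 and 3163 in mice 1 to 4, the order seen for *Cd74*, and the dendritic cell sum averaged 40.7, 48.8, 28.5 and 48.9. The part of these cell types in the differences between mice was not tested. T cell marker sums were 3.89 to 12.5, those of neutrophil markers 487 to 972 and those of fibroblast markers 378 to 1190, of which mouse 4 had the least in both latter lists.

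The genes most like 3 of the members were sought by Pearson's r of log2 normalized counts over the 12 libraries among 10289 genes, which share mice, groups and libraries. *Cd74* was most like *H2-Eb1* (r = 0.995), *H2-Aa* (r = 0.994) and *H2-Ab1* (r = 0.994), so its nearest neighbours were the 3 chain genes. *Ciita* was most like *Ggt5* (r = 0.971), *Gm15513* (r = 0.956) and *Vps35l* (r = 0.947). *Cd86* was most like *Zfp263* (r = 0.994), *Tpd52* (r = 0.985) and *Bclaf3* (r = 0.984).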

How the data were processed

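RNA was measured in 12 libraries of BMDMs of 4 mice. Reads of 50 bases from 1 end of each fragment, from a kit that keeps the strand, were aligned by the authors to GRCm38 (TopHat2 2.0.11) and deposited as raw counts per gene (HTSeq 0.8.0), not normalized. Which strand setting and annotation HTSeq was given is not given in the sources used here. Symbols and coordinates were taken from GENCODE M21. From the deposited counts, genes were filtered with filterByExpr, scaled by TMM and tested with edgeR 4.0.16 (R 4.3.3) in 1 quasi-likelihood fit over the 12 libraries, with Benjamini-Hochberg adjustment over 12386 genes and a threshold of 0.05. Normalized counts were counts scaled by TMM to the mean library size, and RPKM used exon length. The study tested vsn values with limma, without a block being named.

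Per the labels, a number marks a mouse. The deviations of libraries of 1 mouse from the group means had Pearson's r of 0.29 to 0.561 (12 pairs), and those of different mice -0.304 to 0.0912 (36 pairs), so the fit with the mouse as a block is printed where it changed the call of a named gene. The test between mice came from that fit and was chosen after seeing the data. Replicates of a group differed by more than counting error, with a chi-square per degree of freedom of at least 9.39.

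All 10 genes, the pathway and marker lists and the tests were chosen with earlier results of these data known. All 10 are described. List genes are named where they passed with a mean of at least 10 normalized counts and were among the 2 largest rises or falls at a time, and any gene of the lists around *Ciita* and of T cell ligands could be named. Genes most like *Ciita*, *Cd74* and *Cd86* were the 3 with the highest r. *H2-K1*, *H2-Ea-ps*, *H2-Ob*, *Lgmn*, *Ifi30* and the markers were named after their values were seen. Alternatives were DESeq2 1.42.0, limma 3.58.1 (voom, and trend on log2 CPM, in place of vsn, which was not installed), RLE scaling, library size only, no filter, a mean count of at least 50, only the 2 groups compared, an adjusted p under 0.01, each library left out and, chosen after seeing the data, each mouse left out with and without the block. Single values of some list genes are not reported here. Sequences came from RefSeq. Figures used matplotlib 3.10.9 and Python 3.11.15.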

Additional observations from a re-analysis of the deposited data

Results flagged for a closer look

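In untreated BMDMs, *H2-DMb1* in mouse 2 stood apart with 708 normalized counts, where the other 3 libraries had 562 to 581. It was the only such value in 30 groups of 4 libraries, where chance gives about 1 in 20, or 1.5 in all. The difference between the 4 h and 1 h effects was tested for each of the 10 genes. *Cd40* had a log2 fold change of -2.67 from 1 h to 4 h, lower in all 4 mice (edgeR, adjusted p = 3.13e-09). *Cd86* also differed between the time points, with 1.01, higher in all 4 mice (adjusted p = 0.000189).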

How the results depend on the processing

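The calls for *Cd40* at 4 h, for *Cd80* and *Cd86* at 1 h and 4 h and for *Ciita* at 4 h held under all 30 alternatives, with adjusted p of at most 0.0447. The mouse as a replicate block raised the genes of the set called at 4 h from 4 to 8 and between 4 h and 1 h from 2 to 9, and at 1 h from 2 to 3. With the block and mouse 1, 2, 3 or 4 left out, 7, 8, 9 and 7 were called at 4 h, beside 5067, 4989, 5313 and 5252 of all genes (12361 to 12456 tested), and 6, 7, 9 and 7 between 4 h and 1 h, beside 4968, 4732, 5063 and 5265. At an adjusted p under 0.01, 1580 genes in all were called at 1 h in place of 2493. Without the block, leaving out whole mice gave 2 at 1 h, 4 at 4 h and 2 to 3 between the time points, beside 1740 to 1991, 4078 to 4201 and 3729 to 4027 of all genes.

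Values near 0 changed sign. *H2-Eb1* at 1 h (-0.005 in the fit reported) was 0.0019 with RLE scaling, 0.0305 with limma-trend, 0.0554 with limma-voom, 0.0179 with the mouse as a replicate block, 0.0063 with no filter and 0.0042 with only the 2 groups compared. With the block it was 0.0515 without mouse 2 and 0.0754 without mouse 4. Also with the block and without mouse 4, *H2-Ab1* at 1 h was 0.0077 and *H2-DMb1* at 4 h was 0.0052. With library size only, *H2-DMa* and *Cd40* at 1 h were -0.017 and -0.0058, where that scaling moved the median of all genes by -0.07 at 1 h, 0.03 at 4 h and 0.10 between the time points.

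Without the block, the class II values hung on single libraries. Leaving out 1 library or mouse gave, at 1 h, -0.58 to 0.33 for *Cd74*, -0.43 to 0.54 for *H2-Aa*, -0.58 to 0.43 for *H2-Ab1*, -0.55 to 0.60 for *H2-Eb1* and -0.12 to 0.22 for *H2-DMa*. At 4 h it gave -0.995 to 0.0876 for *Cd74*, -1.07 to 0.17 for *H2-Aa*, -1.20 to 0.0175 for *H2-Ab1*, -1.23 to 0.18 for *H2-Eb1*, -0.28 to 0.052 for *H2-DMa* and -0.16 to 0.0411 for *H2-DMb1*. Between the time points it gave -0.87 to 0.22 for *Cd74*, -1.15 to 0.15 for *H2-Aa*, -1.15 to 0.11 for *H2-Ab1*, -1.22 to 0.13 for *H2-Eb1* and -0.34 to 0.0059 for *H2-DMa*. *Ciita* between the time points passed without 4 h replicate 2 (adjusted p = 0.03), without mouse 3 (0.0477) and with no filter (0.0271), and *Cd80* with library size only (0.344, adjusted p = 0.0342).

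The data hold RNA only, so surface class II and costimulation proteins were not measured. With 4 mice of 1 strain, the spread between animals rests on 4 cultures. Time in culture and fenoterol cannot be told apart, since the labels name no time for the untreated cells. Of the libraries, 14580533 counts was the least, and *Ciita* had as few as 14 counts in 1 library at 4 h.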
